A study of Mus musculus with 8 samples.

Results

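The Fat1 gene was examined as a target of ALKBH5 in mouse embryonic stem cells, through all deposited eCLIP peaks that shared at least 1 bp with chromosome 8 between 45.388 and 45.506 Mb (GRCm39), an interval of 118 kb. Of the 72953 peaks in the 4 lists used here, 55 lay in this interval, 27 of 19892 and 28 of 16636 in the full-length lists and 0 of 17584 and 0 of 18841 in the del-cIDR lists. The gene was chosen by these values, because the full-length lists were rich in peaks there and the del-cIDR lists had none. The difference between genotypes is therefore given as a description, with no test.

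FAT1 is a very large transmembrane cadherin, related to the Drosophila tumour suppressor fat. Its extracellular part carries a long row of cadherin repeats followed by laminin G and EGF-like domains, and its cytoplasmic tail binds regulators of actin assembly and takes part in cell polarity, adhesion and growth control. Its messenger RNA is long, and the coding sequence is divided over many exons, a few of them kilobases in length. ALKBH5 is a mostly nuclear enzyme that removes the methyl group of N6-methyladenosine, an abundant internal mark of messenger RNA. Intrinsically disordered regions, such as the one at its C terminus, are stretches of protein without a fixed fold.

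The cells were E14TG2a, an established line of mouse embryonic stem cells grown in both genotypes with LIF and the inhibitors PD0325901 (of MEK) and CHIR99021 (of GSK3). The full-length group was wild type, and the del-cIDR group expressed endogenous ALKBH5 without its C-terminal disordered region from an edited Alkbh5 gene. In eCLIP, UV light crosslinks a protein to RNA, and fragments recovered with the protein are sequenced. Here nuclei were isolated after crosslinking. Each genotype had 2 immunoprecipitates and 2 inputs, of which only the immunoprecipitates' peak lists were used. The labels do not say whether replicates were separate cultures, nor how many clones carried the deletion. Markers of pluripotency were not analysed here, since peak lists hold no expression values.

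Full-length ALKBH5 covered 19.7% and 17.5% of the Fat1 interval with peaks in its replicates, and del-cIDR ALKBH5 had no peak there in either. The full-length lists held 27 peaks over 23299 bp in replicate 1 and 28 peaks over 20671 bp in replicate 2. The del-cIDR lists held 0 peaks and 0 covered bases in both replicates. The genotypes thus did not overlap, with 27.5 ± 0.71 against 0 peaks and 21985 ± 1858 against 0 covered bases (mean ± SD, n = 2 lists each). Of 5531 windows of this length with at least 4 peaks, 26.8% likewise had more peaks in both full-length lists than in either del-cIDR list. In 9.62% both full-length lists had peaks and neither del-cIDR list did. An empty list means that no peak passed the authors' threshold, not that no read was present, and the number of reads behind the lists is unknown. The level of Fat1 RNA in the nuclei of either genotype was not measured here, so less Fat1 RNA and less binding to it cannot be told apart.

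**Figure D1:**
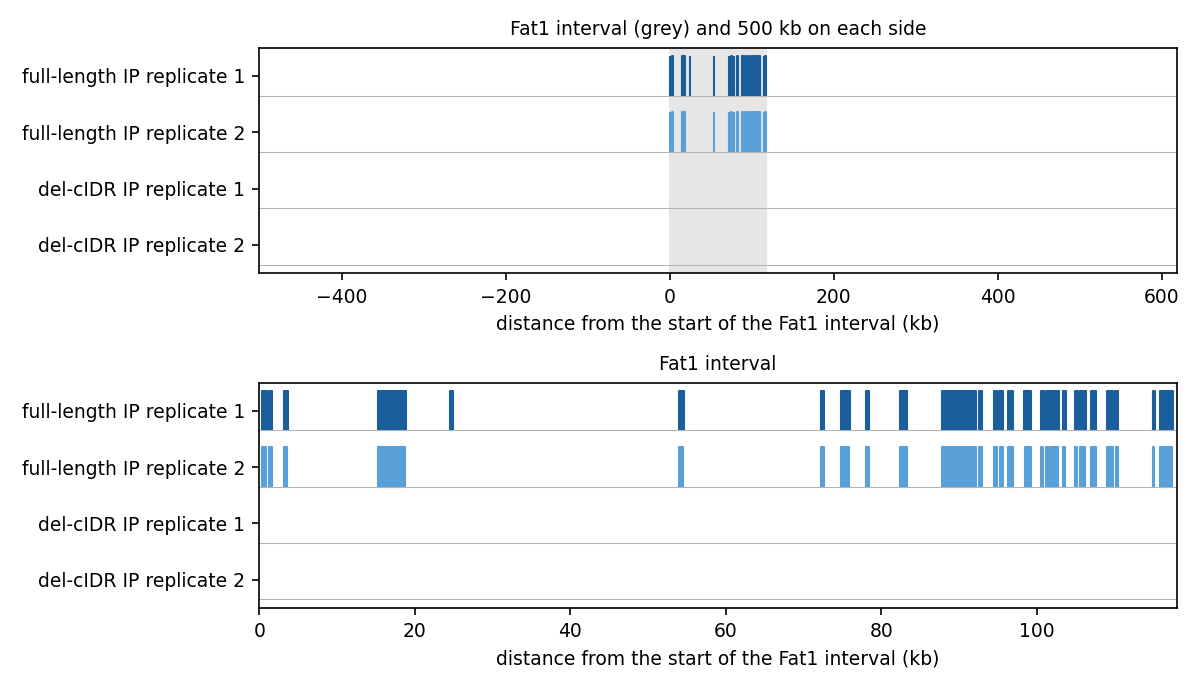
Position of every peak (bars, true width) in the 4 immunoprecipitate lists, against distance from the start of the Fat1 interval in kb; the upper panel adds 500 kb on each side and the lower panel shows the interval alone. Peaks occur in both full-length lists, 27 and 28 of them, all inside the interval, and in neither del-cIDR list.

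The peaks stood alone in a peak-free setting. No list of either genotype had a peak in the 500 kb before or after the interval. The first Fat1 peak began 314 bp inside the interval and the last ended 500 bp before its end. No peak crossed the limits of the interval, which are whole kilobases. The exact ends of the gene were not placed here, so start, middle and end below are those of the interval. The nearest full-length peaks outside were at 44690727 to 44691024 on the lower side, 697 kb away in replicate 1, and at 46682355 to 46682759 on the upper side, 1176 kb away in replicate 1. In replicate 2 the nearest were 1635 kb and 1913 kb away. The nearest del-cIDR peaks lay 1628 kb below and 917 kb above the interval in replicate 1, and 1025 kb below and 1204 kb above it in replicate 2. The del-cIDR lists were thus bare over a stretch of 2664 kb and 2346 kb around Fat1. Apart from the Fat1 peaks, the full-length lists were bare over 1991 kb in replicate 1 and 3666 kb in replicate 2. Peaks did occur elsewhere on chromosome 8 in all lists, 1161 and 997 in the full-length and 981 and 1006 in the del-cIDR replicates.

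By order in the RefSeq annotation of the build GRCm38.p6, which was used for names only, the protein-coding neighbours on the side where Fat1 ends are Mtnr1a, a melatonin receptor, F11 and Klkb1, which encode coagulation factor XI and plasma prekallikrein, and Cyp4v3, a cytochrome P450. On the other side the annotation lists Gm5347, Adam34 and Adam34l. Fat1 is on the plus strand there, so positions rise along the direction of transcription. The deposited peaks carry no strand, and RNA from the opposite strand cannot be told apart from Fat1 RNA.

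Overlapping peaks of the full-length replicates merged into 27 sites, and 26 of these held a peak in both replicates. The exception was the fifth site along the gene, from 45412556 to 45412858, found in replicate 1 alone. It was the narrowest site (303 bp) and the weakest peak of that list in the gene, with 2.67-fold enrichment and rank 15363. Fold enrichment and −log10 q here and below are the authors' own values for a peak, and ranks order the peaks of 1 list by −log10 q. At 2 sites a single peak of replicate 1 faced a pair in replicate 2. The eighth site, from 45462838 to 45463934, was split there by 73 bp without a peak, and the sixteenth, from 45486406 to 45487276, by 123 bp. All 28 peaks of replicate 2 overlapped a peak of replicate 1, and 27 of them lay wholly inside one.

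A few sites lay near the start of the gene, fewer in its middle and most toward its end. The first 3 lay close to its start, from 45388314 to 45388937, from 45389202 to 45389661 and from 45391167 to 45391707. After 11538 bp without a peak came a wide site from 45403246 to 45406805. The long middle of the gene held the replicate 1 site named above and a single site of both replicates, from 45441975 to 45442566. On either side of the latter lay the longest peak-free stretches of the gene, of 29116 bp before it and 17726 bp after it. From 45460293 onward the gaps were short. The last 21 sites filled 45.2 kb and carried 74.0% of the covered bases of replicate 1 and 74.2% of those of replicate 2. In that stretch peaks covered 38.1% and 33.9% of all bases, against 11.2% and 9.83% over the span of the first 6 sites. This division into 6 and 21 sites was made after the positions were seen. The first 6 join the sites near the start with those of the nearly bare middle.

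**Figure D2:**
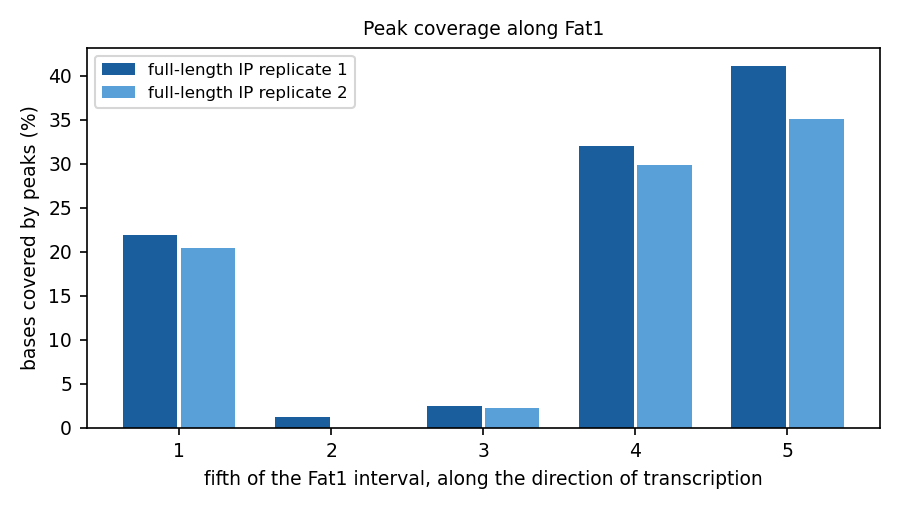
Percent of bases covered by peaks in 5 equal parts of the Fat1 interval, in order of transcription, for both full-length replicates (bars). Coverage was 21.9% and 20.4% in the first, no more than 2.51% in the following 2, and 41.1% and 35.1% in the last.

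Cut into 5 equal lengths, the interval held 4 sites in the first, 1 each in the following 2, 6 in the fourth and 15 in the last. Replicate 1 covered 21.9%, 1.28%, 2.51%, 32.0% and 41.1% of them in turn. Replicate 2 covered 20.4%, 0%, 2.20%, 29.9% and 35.1%. Their order by coverage was the same in both replicates. The median gap between neighbouring sites was 1315 bp, and 11 of the 26 gaps were under 1 kb, the shortest 120 bp.

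Most sites were under 1 kb wide, and 2 very wide ones made up 33.9% and 37.6% of the covered bases of Fat1 in the 2 lists. Site widths had a median of 541 bp, and 22 of the 27 sites were under 1 kb. The widest, the eleventh along the gene, ran from 45475860 to 45480197. It measured 4338 bp in replicate 1 and 4274 bp in replicate 2, with 21.4-fold and 10.1-fold enrichment. The next widest, the fourth, ran from 45403246 to 45406805 and measured 3560 bp and 3494 bp, with 16.5-fold and 10.6-fold enrichment. These were the only Fat1 peaks of 2 kb or wider. The last site, from 45503839 to 45505500, came next at 1662 bp and 1567 bp, with 8.84-fold and 4.49-fold enrichment. Sites of 1 to 2 kb were the eighth, at 1097 bp, the nineteenth, from 45489757 to 45490797, at 1041 bp, and this last one.

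The 2 widest sites were also the strongest by rank, followed by the first site of the gene. By mean rank over both lists the wide site at 45403246 led, with ranks 36 and 85, followed by the wide site at 45475860, with ranks 33 and 89. Their −log10 q values were 1356 and 531 for the former and 1422 and 517 for the latter. The first site of the gene, from 45388314 to 45388937, came next with ranks 66 and 141 although it was 624 bp wide, and it had the highest enrichment of replicate 1 in the gene, 22.3-fold, beside 11.6-fold in replicate 2. The lone site in the middle of the gene, from 45441975 to 45442566, had ranks 118 and 341 with 21.6-fold and 8.18-fold enrichment. The fifth in this order, from 45470447 to 45471362, had ranks 153 and 309 with 17.7-fold and 10.1-fold enrichment. Strong sites were thus found at the start, in the middle and in the dense last part. The highest enrichment of replicate 2, 13.4-fold, fell on a narrow site from 45483197 to 45483668, which had 15.5-fold in replicate 1.

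**Figure D3:**
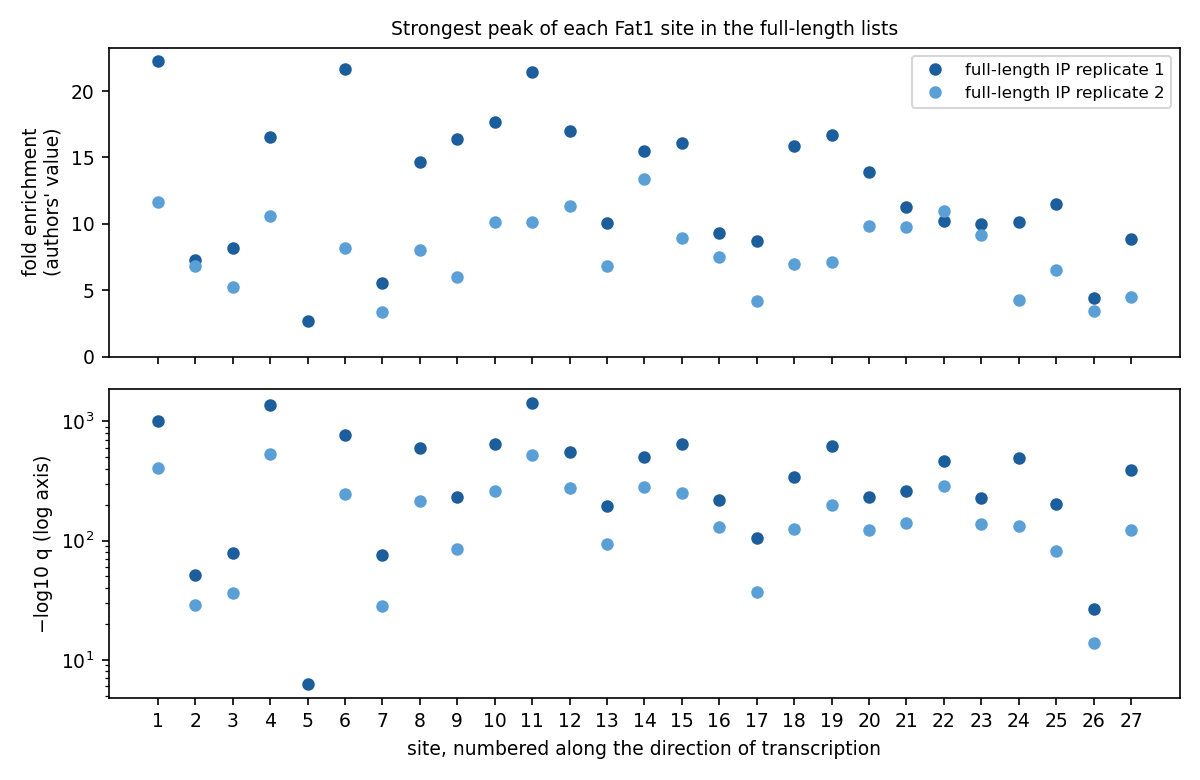
Fold enrichment (upper panel) and −log10 q (lower panel, log axis) of the strongest peak at each of the 27 Fat1 sites, numbered along the gene, for both full-length replicates (points). In replicate 1 fold enrichment was highest at sites 1, 6 and 11 and −log10 q at sites 11, 4 and 1, and site 5 has a point in replicate 1 alone.

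Between the lone middle site and the widest one lay the seventh, from 45460293 to 45460631, the eighth, and the ninth, from 45466031 to 45466423. The site from 45470447 to 45471362, named above, also lay there. The seventh was weak, with 5.58-fold and 3.33-fold enrichment, while the eighth had 14.7-fold and 8.02-fold. Directly after the widest site, 335 bp on, came one from 45480533 to 45480993 with 17.0-fold and 11.3-fold enrichment. It was followed by sites from 45482508 to 45482924, from 45483197 to 45483668, from 45484320 to 45484978 and from 45486406 to 45487276. A close group of sites began at 45488546, 45489196, 45489757, 45491330, 45492870, 45493599, 45494926, 45497003 and 45498099, with enrichment of 8.73-fold to 16.7-fold in replicate 1 and 4.18-fold to 11.0-fold in replicate 2. A weak site from 45502886 to 45503191, with 4.42-fold and 3.43-fold, stood before the last one.

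Against the rest of their own lists, the Fat1 peaks were mostly high in rank. In replicate 1, 24 of the 27 peaks were in the upper 10% of the list by −log10 q. Of these 27, 21 were among the first 1000 of the 19892 peaks in the list. In replicate 2, 22 of 28 peaks were in the upper 10% and 19 among the first 1000 of 16636. Enrichment ranged from 2.67-fold to 22.3-fold in replicate 1 with a median of 11.5-fold, where the whole list had a median of 3.80-fold. In replicate 2 it ranged from 3.33-fold to 13.4-fold with a median of 7.75-fold, against 3.60-fold in the list. The median Fat1 peak was 541 bp wide in replicate 1 and 412.5 bp in replicate 2, against 379 bp and 291 bp in the lists. Peaks at the smallest width of their list, 12.4% of the list of replicate 1 and 17.1% of that of replicate 2, numbered 0 and 1 in Fat1. These are values of the lists that chose the gene and were not tested.

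The replicates placed the sites at nearly the same bases. Of all bases covered in either list, 88.5% were covered in both, a Jaccard index of 0.885, and 99.9% of the bases of replicate 2 lay within peaks of replicate 1. Site starts in replicate 2 were 0 to 50 bp later than in replicate 1, with a median of 15 bp, and 12 of the 26 shared sites differed by at most 10 bp. Site ends were earlier in replicate 2 at 25 of 26 sites, by a median of 62 bp, and at 24 of them by 40 to 90 bp. The exceptions were the second site, which ended 26 bp later, and the third, which ended 173 bp earlier. Beside this, the smallest peak width was 297 bp in the list of replicate 1 and 243 bp in that of replicate 2, a difference of 54 bp. Its part in the shift of the ends was not tested.

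**Figure D4:**
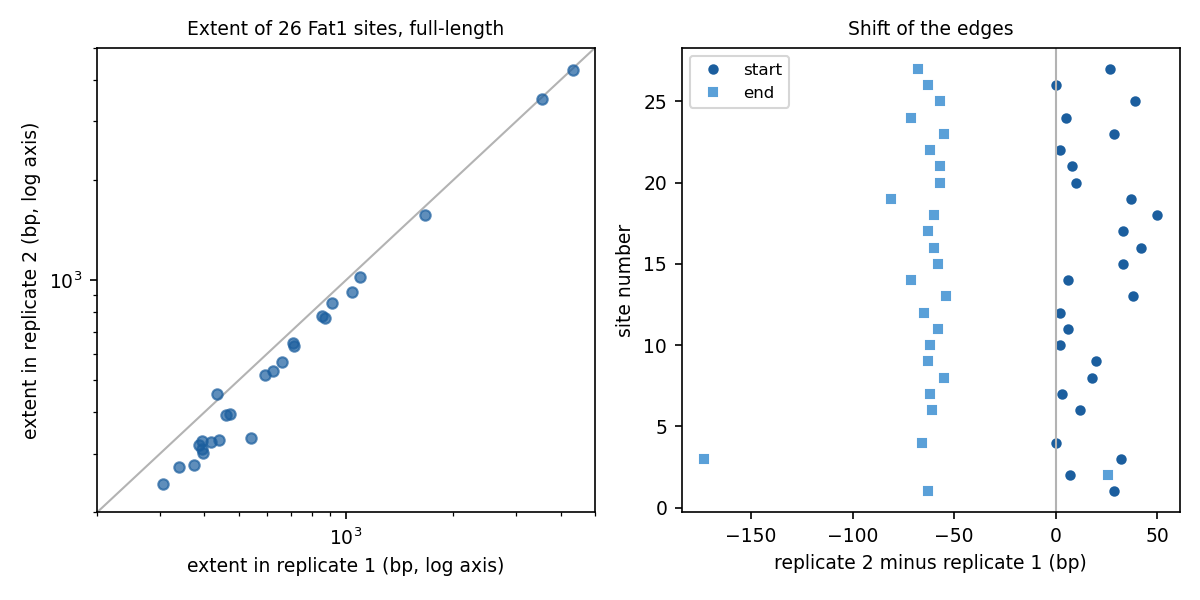
Left, extent of the 26 Fat1 sites shared by the full-length replicates, in bp on log axes, with the line of equal extent; right, shift of each site's start (circles) and end (squares) in bp, replicate 2 minus replicate 1. Extents lie below the line at 25 of 26 sites, starts shift by 0 to 50 bp and 25 of 26 ends lie at negative values.

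Summits, the points of highest signal within a peak, lay a median of 53.5 bp apart between replicates and within 100 bp at 21 of 26 sites. They were far apart at the 2 widest sites. At the site from 45403246 they were at 45403964 in replicate 1 and 45405045 in replicate 2, and at the site from 45475860 at 45478946 and 45476728, distances of 1081 and 2218 bp. The replicates thus shared the edges of the wide sites but not the point of their maximum.

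The order of the sites was also shared by extent and −log10 q, and less so by fold enrichment. Across the 26 shared sites, Spearman's rho between replicates was 0.983 for the extent, 0.912 for −log10 q and 0.683 for fold enrichment. Sites of a gene share 1 RNA and 1 library, so these are descriptions over sites and not tests over samples. Replicate 1 had the larger extent at 25 sites, the higher enrichment at 25 and the higher −log10 q at 26. The exceptions were the second site in extent, 434 bp against 453 bp, and the site from 45493599 to 45494309 in enrichment, 10.2-fold against 11.0-fold. The list of replicate 1 was the longer one, and the reads behind each are unknown.

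For comparison, the numbered, X and Y chromosomes were cut into windows of the length of the Fat1 interval, and 5531 windows held at least 4 peaks over the 4 lists. The Fat1 interval fills a window exactly, whereas the peaks of another gene can be divided between neighbouring windows or share one with other genes. In 26.8% of these both full-length lists had more peaks than either del-cIDR list, and 9.62% had peaks in both full-length lists and none in either del-cIDR list, as Fat1 did. The lack of overlap between genotypes was thus common. Fat1 was chosen for many full-length and no del-cIDR peaks, so its place by these values follows from the choice. The 532 windows without a del-cIDR peak reached the limit of 4 peaks through full-length peaks alone. Among them the lower full-length count had a median of 3, and Fat1, with 27, had the highest. It also had the most bases covered in the lower list. Across all windows 15 had 27 or more peaks in both full-length lists, and the other 14 held between 1 and 26 peaks in the higher del-cIDR list, with a median of 5.5.

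**Figure D5:**
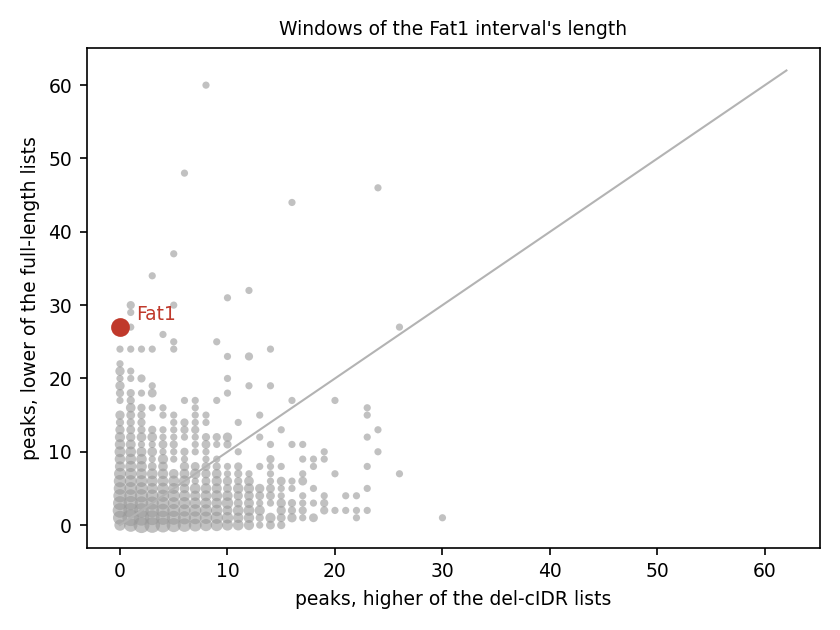
Windows of the Fat1 interval's length, by the higher of the del-cIDR peak counts (horizontal axis) and the lower of the full-length counts (vertical axis); larger grey points stand for more windows and the line marks equal counts. Fat1 (red), with 27 and 0 peaks, lies above all other windows without a del-cIDR peak.

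The windows most like Fat1, taken as those without a del-cIDR peak and with the highest lower full-length count, were less isolated. The first, on chromosome 5 from 104666888 to 104784888, held 25 and 24 full-length peaks, the widest of them 5496 bp and 5451 bp. The next, on chromosome 18 from 37760321 to 37878321, held 23 and 22, and that on chromosome 10 from 78824669 to 78942669 held 21 and 21. On chromosome 17 the window from 33512285 to 33630285 held 21 and 26. The last, on chromosome 9 from 120951026 to 121069026, held 23 and 21. Peaks covered 26.3% and 10.9% of the chromosome 18 window in the 2 full-length replicates and 18.7% and 13.6% of the chromosome 5 window. All 5 had peaks of both genotypes in the 500 kb on each side added up, from 7 to 30 in a del-cIDR list. Of the 225 windows with 10 or more peaks in both full-length lists, Fat1 was the only one with no flank peak in any list. The next lowest had 2 flank peaks over the 4 lists, and the median window had 74. The Fat1 window was cut at limits set for the gene and the others were not. Further peaks of a gene in another window can thus fall into its flanks, which favours Fat1 by construction. These comparisons used the values that chose Fat1 and were not tested. The genes in these windows, and the relatives of Fat1 and the genes of its pathways, were not analysed here, since the annotation at hand is on another build.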

How the data were processed

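Peak lists of the 4 ALKBH5 immunoprecipitates were used, and the inputs were not analysed here. The submitters' processing notes name MACS2, UMI-tools, STAR and cutadapt, and GRCm39 as the build. Not given in the sources used here are versions, settings and whether the inputs served as control. The authors deposited 1 list per library, so peaks were called per replicate. Lists named wt were taken as full-length. Lists named KI were taken as del-cIDR, since no other genotype is labelled. The values the authors deposited per peak are its fold enrichment (a ratio over the peak caller's background), its −log10 p and q-values, a score of 10 times the −log10 q, and the distance from its start to its summit. The lowest deposited −log10 q was 1.31 to 1.34.

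Positions were made 1-based. Peaks sharing at least 1 bp with the interval were counted with Python 3.11.15 and pandas 2.3.3, merged into sites where they shared a base, and ranked within their list. Windows for comparison were tiled from the interval's edges on chromosome 8 and from base 1 elsewhere. The counting was tested on simulated lists. No test was run, and the precision is that of 2 lists per genotype. The rule for named sites took those of both full-length lists by position, the 5 best by mean rank and the 3 widest in full, and the 5 windows most like Fat1. The gene and these rules were chosen with earlier results of these data known. Alternatives were stricter limits (−log10 q from 5, fold enrichment from 4), lists of equal length, joined peaks, other flanks and windows, and leaving out each replicate. The fixed lists of pathway genes and stem cell markers, exon and intron positions and sequence were not analysed here.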

Additional observations from a re-analysis of the deposited data

How the results depend on the processing

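The alternatives run inside Fat1 only removed or joined peaks, so the del-cIDR lists, with 0 peaks there, could not change under them. The mean of 27.5 full-length peaks ranged from 27 to 28 when a replicate was left out, was 26 with peaks of at least 4-fold enrichment, and fell to 15.5 when peaks within 1000 bp were joined, which by construction merges neighbouring sites. Joining also raised the covered bases from 21985 to 26845.5, and leaving out a replicate gave 20671 to 23299. The 26 shared sites became 24 at 4-fold and did not change under the other alternatives. The last 2 of the 5 equal lengths held 74.1% of covered bases, 74.3% at 4-fold and 74.0 to 74.2% without a replicate. Flanks of 1 Mb held a mean of 0.5 full-length and 1.5 del-cIDR peaks, the latter all in replicate 1, against 0 in flanks of 500 kb. The share of windows with more full-length peaks, 26.8%, was 31.9% with counts per 10000 peaks, 18.3% and 36.7% with windows of at least 1 and 8 peaks, and 29.8 to 35.5% without a replicate. The share without a del-cIDR peak, 9.62%, was 8.75% with at least 8 peaks and 9.62 to 14.1% without a replicate. The lack of read numbers limits what an empty list shows.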
